A study of Homo sapiens with 8 samples.

Results

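Immune checkpoint ligands are surface or secreted proteins by which a tumour cell restrains the T cells, natural killer (NK) cells or macrophages that meet it. The 9 genes described here are CD274, PDCD1LG2, CD276, VTCN1, NT5E, CD47, LGALS9, PVR and NECTIN2, chosen by name. All 9 are among the 43869 genes of the deposited table, where they are paired with 92 of 126470 H3K27ac peaks, a peak and a gene being paired when at most 20 kb apart. RNA and H3K27ac were measured in naive H3122 cells, a lung adenocarcinoma line driven by the EML4-ALK fusion kinase, and in 3 derivatives in which resistance had evolved under a gradually raised dose of an ALK inhibitor. The erCriz0 line was evolved in 0.5 μM crizotinib, erAlec0 in 2 μM alectinib and erLor0 in 2 μM lorlatinib. The chromatin samples of all 4 lines are labelled as kept in 0.1% DMSO, and RNA was taken after 48 h without inhibitor. Each line gave 1 RNA library and 1 ChIP library, so the differences below carry no replicate check, and p-values are left out. The other 4 of the 8 samples (erCriz1, erLor1, Lor 2w and pooled input DNA) were not analysed here.

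CD274 encodes PD-L1 and PDCD1LG2 encodes PD-L2, the pair of ligands through which cells switch off T cells that carry PD-1. Interferon gamma, acting through JAK kinases and IRF1, induces CD274 in many cells, and in ALK-driven lung cancer the gene is also known to respond to signalling of the kinase itself. CD276 (B7-H3) and VTCN1 (B7-H4) are B7 family proteins that dampen T cells. NT5E (CD73) makes adenosine outside the cell. CD47 tells macrophages through SIRPA not to engulf the cell, LGALS9 encodes galectin-9, and PVR (CD155) and NECTIN2 (CD112) bind TIGIT and CD226 on T and NK cells.

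H3K27ac is an acetylated histone that marks active promoters and enhancers. Each level below is an rlog value, a log2 of normalised reads that the authors shrank toward the feature's mean where reads were few, and each change is the resistant value less the naive one. Up and down mean a change past 1 in size, about 2-fold. A gene was called expressed when its rlog reached 4.64, the log2 of 25 reads, in at least 1 of the 4 libraries, which 12701 genes did. All 6 epithelial markers examined were expressed, with KRT18 between 14.66 and 15.17 and KRT8 between 13.42 and 13.82 on the rlog scale. Of 10 leukocyte markers, 9 had values and 0 were expressed. CD14 was the highest of them, at 4.42 in naive cells and between 4.31 and 4.53 in the resistant lines, and PTPRC, the pan-leukocyte gene, was listed at 0 in all libraries. Of 5 stromal markers with values, 1 was expressed, COL1A1, at 9.49 in naive cells and 9.71, 9.99 and 10.08 in erCriz0, erAlec0 and erLor0. None of 7 checkpoint receptors of leukocytes with values was expressed. The highest of these was LAG3, between 2.68 and 2.95. In bulk RNA of a cultured line, fewer cells expressing a gene and less RNA per cell cannot be told apart.

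Of the members whose start-site acetylation is described below, the promoters of 5 are shown, without those of VTCN1, PVR and NECTIN2. Each one shown is the 300-base window from 250 bases before to 50 after a RefSeq start on GRCh38.p14. The windows shown are identical to hg38 and lie inside an H3K27ac peak. RefSeq windows were found for 8 of the 9 members. Capitals mark matches, on either strand, to GAAANNGAA (an interferon-type element), TTCNNNGAA (the GAS element) or ACGTG (the core of the hypoxia element). The windows of CD274 and LGALS9 come first, since both hold the interferon-type letters.
CD274, chr9:5450292-5450591, plus strand: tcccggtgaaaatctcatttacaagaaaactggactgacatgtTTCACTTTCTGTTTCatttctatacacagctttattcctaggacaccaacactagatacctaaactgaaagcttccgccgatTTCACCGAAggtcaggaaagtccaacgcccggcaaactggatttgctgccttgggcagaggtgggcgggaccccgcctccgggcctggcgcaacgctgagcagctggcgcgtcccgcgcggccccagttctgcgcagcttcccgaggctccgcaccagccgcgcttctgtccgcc
LGALS9, chr17:27630938-27631237, plus strand: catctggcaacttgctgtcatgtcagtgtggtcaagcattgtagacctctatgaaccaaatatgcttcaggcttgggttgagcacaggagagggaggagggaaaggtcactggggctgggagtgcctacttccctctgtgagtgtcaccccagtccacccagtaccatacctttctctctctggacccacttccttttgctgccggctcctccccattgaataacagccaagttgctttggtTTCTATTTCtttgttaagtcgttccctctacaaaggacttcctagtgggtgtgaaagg
CD47, chr3:108090982-108091281, minus strand: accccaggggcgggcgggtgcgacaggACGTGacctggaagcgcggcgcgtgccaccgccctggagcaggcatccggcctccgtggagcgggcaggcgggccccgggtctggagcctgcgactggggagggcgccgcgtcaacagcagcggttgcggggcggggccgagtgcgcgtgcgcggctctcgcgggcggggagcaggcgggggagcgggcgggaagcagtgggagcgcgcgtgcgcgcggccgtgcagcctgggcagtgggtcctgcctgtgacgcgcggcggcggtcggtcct
NT5E, chr6:85449833-85450132, plus strand: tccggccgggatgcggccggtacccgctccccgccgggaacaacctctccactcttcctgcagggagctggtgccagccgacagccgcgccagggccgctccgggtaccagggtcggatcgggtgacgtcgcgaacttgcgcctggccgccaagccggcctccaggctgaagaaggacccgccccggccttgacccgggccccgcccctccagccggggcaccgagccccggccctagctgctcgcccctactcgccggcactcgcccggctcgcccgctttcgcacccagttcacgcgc
CD276, chr15:73684133-73684432, plus strand: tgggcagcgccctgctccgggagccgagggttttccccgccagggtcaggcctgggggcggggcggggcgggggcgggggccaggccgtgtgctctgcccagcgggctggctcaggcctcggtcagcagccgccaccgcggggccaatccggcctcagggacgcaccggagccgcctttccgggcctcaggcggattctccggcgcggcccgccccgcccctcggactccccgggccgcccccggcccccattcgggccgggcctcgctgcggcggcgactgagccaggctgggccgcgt
The CD274 window held 2 overlapping matches to GAAANNGAA, which begin at -207 and -201 relative to the start, and 1 match to TTCNNNGAA at -125. LGALS9 held 1 match to GAAANNGAA at -8, and CD47 held ACGTG at -223. Of all 35116 RefSeq windows of this length, 8.11% held GAAANNGAA, 7.66% TTCNNNGAA and 21.4% ACGTG. The letters TGANTCA (AP-1), GGGANTTTC (NF-kB) and GGAATG (TEAD) were searched as well and occur in 7.71%, 1.28% and 14.0% of windows. TGANTCA was found in the VTCN1 window and GGAATG in the PVR window, while the windows shown for NT5E and CD276 held none of the 6 motifs. CD276 has a second RefSeq window, chr15:73684520-73684819, which is not shown and held ACGTG at -226. The windows shown for NT5E, CD47 and CD276 were also richer in G and C, at 75%, 79.0% and 80.3%, than those of CD274 (57.3%) and LGALS9 (50.7%). The median over all windows was 58.7%. A match is a run of letters, not a shown binding site.

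Of the 9 genes, 7 were expressed, and PDCD1LG2 and VTCN1 were not. CD274 was the member whose RNA differed most between lines, and it was past the limit of 1 in all 3 resistant lines. NT5E was past it in erCriz0. No member was lower by 1 in any line. Members up were thus 2 in erCriz0, 1 in erAlec0 and 1 in erLor0, while of all expressed genes 2.65%, 2.46% and 1.1% were up and 1.65%, 2.07% and 0.74% were down. Among the 7 expressed members, 5, 5 and 6 were higher than in naive cells, with a median change of 0.48, 0.45 and 0.27, against -0.02, 0.00 and -0.00 over all expressed genes.

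**Figure D1:**
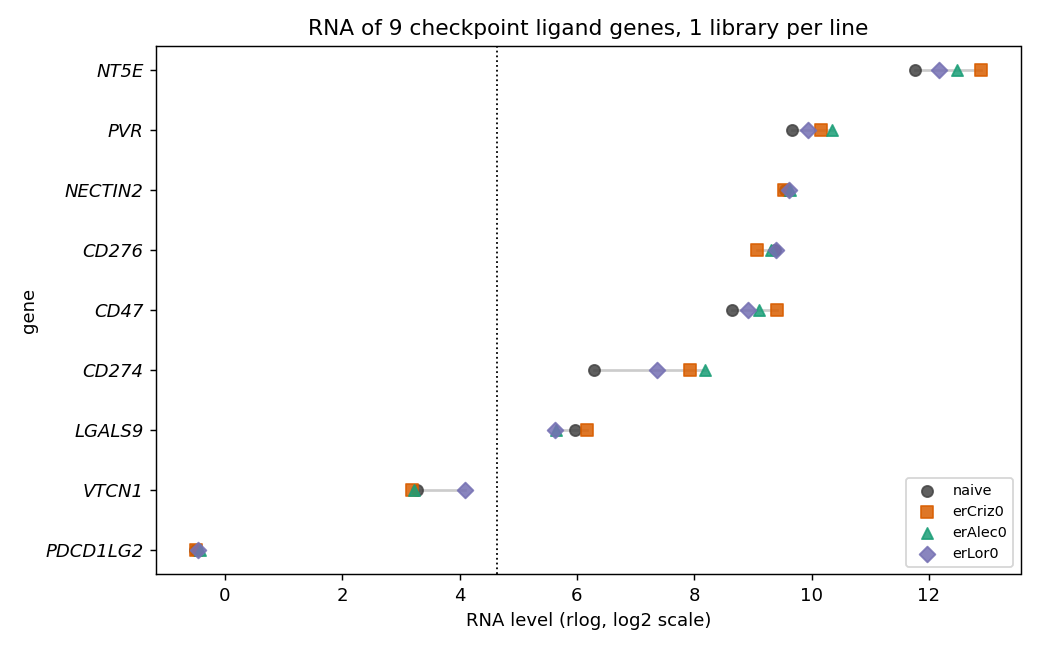
RNA level of the 9 genes (x axis, rlog on a log2 scale) in 4 cell lines, 1 library each, with genes ordered by their level in naive cells and the dotted line at 4.64, the level taken as expressed. CD274 spans 1.88 from its lowest to its highest library, NECTIN2 spans 0.11, and PDCD1LG2 lies far left of the line in every library.

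Compared per kilobase of exon, on the rlog scale, the order in naive cells was NT5E (9.59), NECTIN2 (7.64), CD276 (6.92), PVR (6.29), CD47 (5.61), CD274 (4.26), LGALS9 (3.45), VTCN1 (1.68) and PDCD1LG2 (-1.78). The order changed in 2 places. In erAlec0, CD274 reached 6.15 per kilobase and passed CD47 at 6.06, whereas it stayed below CD47 in erCriz0 (5.90 and 6.37) and erLor0 (5.33 and 5.88). PVR passed CD276 in erCriz0 (6.77 and 6.61) and in erAlec0 (6.96 and 6.85), but not in erLor0 (6.56 and 6.95). With 1 library per line, whether neighbours in this order differ beyond the spread between replicates was not tested.

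CD274, the gene of PD-L1, lies on hg38 at chr9:5450503-5470566 on the plus strand. Its RNA stood at 6.30 in naive cells, 7.93 in erCriz0, 8.18 in erAlec0 and 7.37 in erLor0. The 3 resistant lines were all above naive cells, by 1.63, 1.88 and 1.07, or 3.10-fold, 3.69-fold and 2.10-fold on the shrunken scale. Only 0.764%, 0.244% and 0.882% of expressed genes were higher by more in the same line, which places CD274 at rank 98, 32 and 113 of 12701. An antisense long non-coding RNA, ENSG00000286162, overlaps both CD274 and PDCD1LG2. It stood at 4.14, 4.43, 4.73 and 4.30, below CD274 in each library, and whether strand was used in counting is not given in the sources used here.

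The H3K27ac peak over the CD274 start, at chr9:5448711-5451234, includes the promoter printed above. Its level was 6.47 in naive cells, 7.78 in erCriz0, 7.24 in erAlec0 and 7.25 in the erLor0 library. It was therefore highest in erCriz0, with a change of 1.31 that 3.09% of all peaks exceeded, while erAlec0 and erLor0 differed from naive cells by 0.77 and 0.78. For RNA the order was different, with erAlec0 above erCriz0. A second peak within the first part of the gene, at chr9:5453124-5455692, went from 6.25 to 7.38, 6.62 and 6.63, changes of 1.13, 0.38 and 0.39. The 6 peaks paired with CD274 had a median change of 0.57, 0.30 and 0.35, beside 0.24, 0.34 and 0.20 for the 241 other peaks within 5 Mb. All 6 were also paired with PLGRKT, the next gene on the upstream side. PLGRKT, which encodes a plasminogen receptor, was at 7.18 and higher by 1.34, 0.93 and 0.73 in RNA. JAK2, a kinase gene of interferon signalling that lies further upstream, was at 6.12 in naive cells and higher by 0.95, 0.73 and 0.42.

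Of 12 neighbours of CD274 on 9p24, 10 had values and 7 were expressed. PLGRKT was the 1 neighbour up by 1, in erCriz0, and none was down in any line. The 7 had a median of 0.38, 0.22 and 0.02. The 27 other expressed genes within 5 Mb of CD274 had median RNA changes of 0.38, 0.06 and -0.01. Relative to it, CD274 was higher by 1.26, 1.83 and 1.08. A change in the number of gene copies and a change in activity cannot be told apart in these values.

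PDCD1LG2, the gene of PD-L2, begins downstream of CD274, at chr9:5510531-5571282. Its RNA was at or near the bottom of the scale in every library, at -0.50 in naive cells and -0.50, -0.43 and -0.46 in the resistant lines. No peak covers its start. Yet a peak in its intron, at chr9:5529385-5532893, stood at 5.0 in naive cells, 5.16 in erCriz0, 8.25 in erAlec0 and 6.45 in erLor0. The erAlec0 library was the highest by far, with a change of 3.25 that 0.0609% of all peaks exceeded in that line, and erLor0 followed with 1.44, while the erCriz0 change was 0.15. The other paired peak, 9558 bases upstream of the gene, was at 3.60, 4.48, 4.75 and 4.42. Neither peak is paired with PDCD1LG2 alone, since both are also paired with the antisense RNA ENSG00000286162. That RNA stood at 4.14 in naive cells and 4.43, 4.73 and 4.30 in erCriz0, erAlec0 and erLor0. Over the 300 kb on either side of the CD274 start the table holds 14 peaks, 2 of them at 0 in all libraries. Of the 14, 2, 4 and 1 were up in erCriz0, erAlec0 and erLor0 and none was down, beside 9.96%, 25.3% and 9.13% up among other peaks within 5 Mb of CD274.

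**Figure D2:**
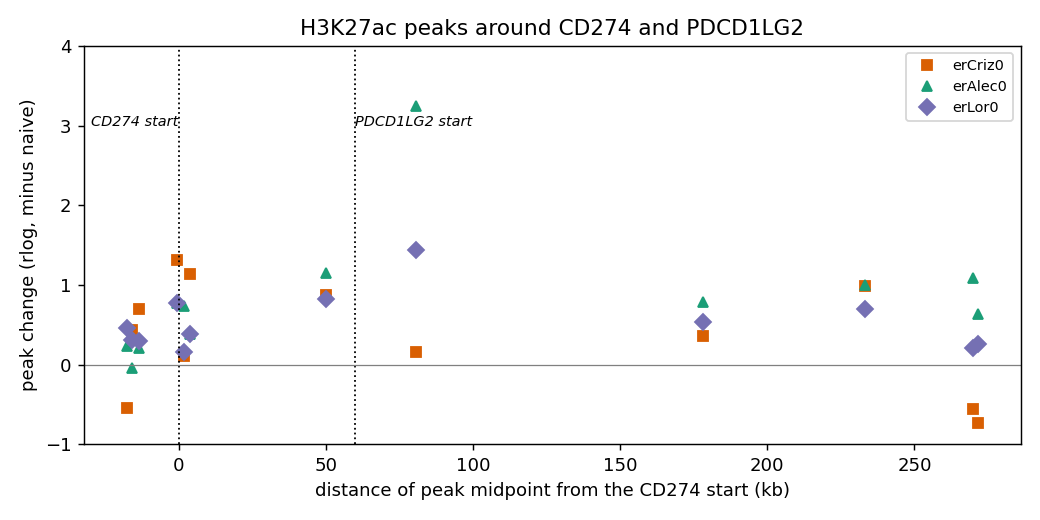
Change in H3K27ac (y axis, rlog of a resistant line minus naive) of the 12 peaks with values within 300 kb of the CD274 start, by distance of the peak midpoint from that start in kb (x axis), with dotted lines at the starts of CD274 and PDCD1LG2. The erCriz0 points are highest at the CD274 start (1.31), and the erAlec0 point in the PDCD1LG2 intron stands at 3.25.

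The 3 expressed genes whose 3 RNA changes were nearest to those of CD274 by Euclidean distance were SLC7A2, a cationic amino acid transporter gene (distance 0.36), UNC13A, a gene of vesicle release (0.41), and KRT16P6, a keratin pseudogene (0.41) whose reads may come from its parent gene. UNC13A changed by 1.95, 1.93 and 1.33 and SLC7A2 by 1.39, 1.74 and 0.85. The 3 changes of each gene share the naive library.

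CD276 and VTCN1, the B7 family members, had start-site peaks above the naive level in all 3 resistant lines, and neither differed by 1 in RNA in any line. CD276 (chr15:73683966-73714514) had RNA of 9.37 in naive cells and 9.06, 9.30 and 9.40 in erCriz0, erAlec0 and erLor0. The 4 values lie within 0.34 of each other, and the changes were -0.31, -0.07 and 0.03. The peak over its start, at chr15:73683667-73685368, was in contrast at 6.41 in naive cells and 7.14, 7.74 and 7.60, so that it was higher by 0.73, 1.33 and 1.19. A peak just past its end, at chr15:73714869-73717873, was at 5.60, 5.0, 7.84 and 6.89. It differed most from naive cells in erAlec0 (2.24, exceeded by 1.19% of all peaks), was also higher in erLor0 (1.29) and was lower in erCriz0 (-0.60). Of its 5 paired peaks, 0, 3 and 3 were up by 1, beside 7%, 14.1% and 7.45% of all peaks. The 5 had medians of 0.51, 1.33 and 1.16 beside -0.01, 0.34 and 0.17 for 710 other peaks within 5 Mb. Over the 2 peaks paired with CD276 and no other gene the medians were 0.62, 0.40 and 0.54, and the peak past its end is also paired with INSYN1.

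VTCN1 (chr1:117143587-117210960, minus strand) was under the level taken as expressed. Its RNA was 3.28 in naive cells, 3.19 in erCriz0, 3.23 in erAlec0 and 4.10 in erLor0, so that erLor0 stood apart by 0.82. Its start-site peak, at chr1:117207108-117215463, was at 7.52, 8.21, 8.85 and 10.40, and the erLor0 change was 2.88. All 32 peaks paired with VTCN1 were up by 1 in erLor0, against 0 in erCriz0 and 5 in erAlec0. The largest erLor0 change, 3.20, was at a peak upstream of the gene, chr1:117228056-117234366. However, the region as a whole was higher in this line. Of the 956 other peaks within 5 Mb, 68.6% were up by 1 in erLor0, and their median change of 1.32 compares with 1.55 for the VTCN1 peaks. The 53 expressed genes within 5 Mb had a median RNA change of 1.09 in erLor0, above the 0.82 of VTCN1. More copies of the stretch and more acetylation per copy cannot be told apart here.

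Among 16 other B7 family and inhibitory ligand genes listed, 15 had values and 6 were expressed. Of these 15, 2 were up in erCriz0 and none in erAlec0 or erLor0. They were FGL1 and CEACAM1. FGL1, which encodes a ligand of LAG3, had changes of 1.65, 0.55 and 0.38 from a naive level of 3.27. It counted as expressed through erCriz0 alone, at 4.92, against 3.82 in erAlec0 and 3.65 in erLor0. CEACAM1, an adhesion molecule that inhibits T cells, had changes of 1.15, 0.54 and 0.50 from 6.33. The 6 expressed genes, FGL1 included, had medians of 0.55, 0.21 and 0.17. Of the costimulatory TNF family ligands, 4 of 7 had values and 1 was expressed, TNFSF15, at 6.96, 6.26, 7.01 and 6.33. TNFSF9, the ligand of 4-1BB, was at 3.37, 3.69, 3.74 and 3.50.

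NT5E (chr6:85449584-85495791), whose product turns AMP into adenosine, had the highest RNA of the 9 genes in all lines, and its RNA and acetylation differed from naive cells in opposite directions in erAlec0 and erLor0. Its RNA was 11.77 in naive cells, 12.89 in erCriz0, 12.47 in erAlec0 and 12.18 in erLor0. Every resistant line was above naive cells, by 1.12, 0.70 and 0.41, and 2.10%, 5.51% and 8.72% of expressed genes were higher by more. The peak over its start, at chr6:85449307-85455871, was at 9.95 in naive cells, 10.13 in erCriz0, 8.58 in erAlec0 and 9.13 in erLor0. The erCriz0 peak was thus close to that of naive cells (0.17), and the other lines were lower, with changes of -1.38 and -0.83.

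The lower acetylation covered nearly the whole set of NT5E peaks. Of the 11, 10 were lower than in naive cells in erAlec0 and 11 in erLor0, and 8 and 5 were down by 1. In erCriz0, 6 were lower and none was down by 1. Of all peaks, 9.41% were down in erAlec0 and 8.82% in erLor0. A strong intron peak at chr6:85461273-85465419 stood at 8.39, 8.56, 6.96 and 7.23. The exception in erAlec0 was a peak beyond the gene's end, chr6:85498345-85498864, higher by 1.03 and also paired with SNX14. The median change of the 11 peaks was -0.06, -1.24 and -0.83. That of 300 other peaks within 5 Mb was -0.03, -0.33 and -0.46, and the median RNA change of 32 expressed genes there was 0.31, -0.26 and -0.33. Relative to those neighbours, NT5E RNA was higher by 0.81, 0.97 and 0.74.

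**Figure D3:**
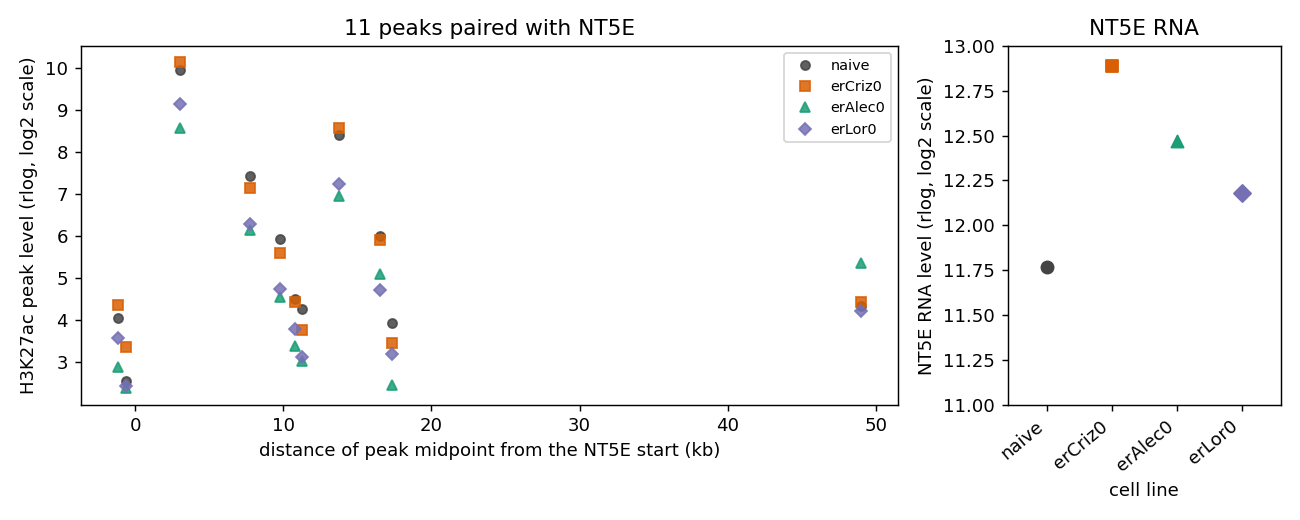
Left, H3K27ac level (rlog) of the 11 peaks paired with NT5E by distance of the peak midpoint from its start in kb, and right, NT5E RNA (rlog, axis from 11), each point 1 library. In erAlec0 and erLor0 the start-site peak lies at 8.58 and 9.13, below 9.95 in naive cells, while RNA lies at 12.47 and 12.18, above 11.77.

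The genes with RNA changes nearest to those of NT5E were SLFN5, an interferon-inducible gene (distance 0.12), TGFBR2, a receptor of TGF-beta (0.13), and GCNT2, a glycosyltransferase gene (0.15). TGFBR2 changed by 1.10, 0.79 and 0.50. Among 19 other adenosine pathway genes, all with values and 10 expressed, 1 was up and 2 were down in erCriz0 and none passed the limit in erAlec0 or erLor0. ENTPD3, which hydrolyses extracellular ATP and ADP, stood at 6.56 and was higher by 1.26, 0.46 and 0.26. SLC29A2 and SLC29A1, the transporters that carry adenosine across the membrane, changed by -1.45 and -1.02 in erCriz0, from 9.04 and 8.80, against -0.09 and -0.23 in erAlec0 and 0.08 and -0.08 in erLor0. ENTPD1 (CD39), which makes the AMP that NT5E uses, was not expressed, at 0.34 in naive cells and between 0.27 and 0.34 in the others. The 10 expressed genes had medians of -0.06, -0.07 and 0.06.

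CD47 (chr3:108043091-108091862, minus strand) had RNA of 8.65 in naive cells, 9.41 in erCriz0, 9.10 in erAlec0 and 8.92 in erLor0. All 3 changes were positive, at 0.77, 0.45 and 0.27, and none reached 1. The order of the lines was that of NT5E. No peak covers the outermost annotated start, but 1 lies 30 bases from it and covers the RefSeq start, chr3:108089551-108091832, with levels of 6.93, 7.43, 8.38 and 7.90. Here erAlec0 was the highest, with changes of 0.50, 1.45 and 0.97. In erAlec0 and in erLor0 all 7 peaks paired with CD47 exceeded their naive level, 5 and 1 of them by 1. In erCriz0, 4 were higher and 0 up. Of all peaks, 14.1% were up in erAlec0 and 7.45% in erLor0. The median of the 7 was 0.12, 1.45 and 0.55, against -0.13, 0.28 and -0.14 for 273 other peaks within 5 Mb. The largest was a 7155-base peak past the 3′ end, chr3:108017976-108025130, at 7.88, 7.77, 9.68 and 8.93.

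Of 7 other genes of the CD47 pathway, 6 had values, all expressed, and none was up or down in any line, with medians of 0.17, 0.28 and 0.27. CALR, whose product calreticulin is an engulfment signal that CD47 opposes, was at 12.03, 12.27, 11.90 and 11.83. The next genes were chosen after their values were seen. QPCTL, an enzyme gene whose product modifies CD47 for SIRPA binding, changed by 0.01, 0.03 and 0.42, and its paralogue QPCT by 0.78, 0.63 and 0.13. CD24, another signal that restrains macrophages, changed by 0.72, 0.53 and 0.42, and THBS1, a secreted ligand of CD47, by 0.11, 0.86 and 0.94.

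LGALS9 (chr17:27629798-27649560) was the lowest of the expressed members per kilobase. Its RNA was 5.96 in naive cells, 6.17 in erCriz0, 5.64 in erAlec0 and 5.62 in the erLor0 library, with changes of 0.20, -0.32 and -0.34. Its 1 paired peak, chr17:27630693-27633391, begins 895 bases past the outermost start and covers the RefSeq start printed above. The same peak is paired with 6 genes in all, KSR1 among them. That peak was at 6.94 in naive cells, 8.80 in erCriz0, 7.55 in erAlec0 and 7.75 in erLor0. The erCriz0 change of 1.86 was exceeded by 0.622% of all peaks, and the changes in erAlec0 (0.61) and erLor0 (0.81) were positive where RNA was lower. LGALS9B and LGALS9C, near-identical copies, were not expressed, at most 0.97 and 2.00, but reads shared among the 3 genes make the LGALS9 level uncertain. Of 13 other galectin genes listed, LGALS3BP included, 11 had values, 4 were expressed and none was up or down. LGALS3BP, a galectin-binding secreted protein, was at 11.11, 11.33, 10.76 and 10.44, and LGALS3 was at 10.47, 10.30, 10.76 and 10.79. Their list had medians of 0.13, 0.02 and 0.02.

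PVR (chr19:44643798-44666162) had RNA of 9.67 in naive cells, 10.15 in erCriz0, 10.34 in erAlec0 and 9.94 in the erLor0 library. Its changes of 0.48, 0.67 and 0.27 were all positive and under 1. CEACAM19 overlaps it on the same strand, at 6.35, 6.74, 7.22 and 7.11, so reads of the overlap could be assigned to either or neither. The start-site peak, chr19:44643429-44644864, was at 6.95, 7.77, 7.21 and 7.41, higher by 0.82, 0.26 and 0.46. The rest of its 8 paired peaks were mostly lower, and the set had medians of -0.29, -0.52 and -0.36. Over the peaks within 5 kb of PVR alone the medians were 0.75, -0.10 and 0.46, so the direction for erCriz0 and erLor0 turned with the distance allowed. None of the 8 is paired with PVR alone. The largest change, -1.04 in erAlec0, was at chr19:44683235-44684251, past the gene's end.

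NECTIN2 (chr19:44846175-44889223) had the most even RNA of the expressed members, at 9.54 in naive cells and 9.52, 9.64 and 9.62 in erCriz0, erAlec0 and erLor0. The peak over its start, chr19:44846171-44850627, was at 8.38, 8.76, 8.11 and 8.76, with changes of 0.38, -0.27 and 0.38. Its 20 paired peaks had medians of -0.15, -0.41 and -0.08, beside -0.09, -0.34 and 0.00 for 1324 other peaks within 5 Mb. Over the 5 peaks paired with NECTIN2 and no other gene the medians were -0.08, -0.03 and 0.49. The largest change was at chr19:44887198-44888798 in the last part of the gene, at 6.22, 5.26, 4.90 and 5.02, lower than naive cells in every resistant line. That peak is also paired with TOMM40 and APOE. Of 9 other nectins and nectin-like genes, 8 had values, 6 were expressed and none passed the limit. AFDN, which ties nectins to actin, changed by 0.17, -0.18 and -0.15, NECTIN1 by -0.45, -0.18 and -0.37, and the 6 had medians of 0.08, -0.18 and -0.25. Of 13 activating NK cell ligands, 9 were expressed and 1 passed the limit, CD58, the ligand of CD2, with 0.18, -0.36 and 1.24. The 9 had medians of -0.05, -0.18 and 0.00. CD58 lies on chromosome 1, as VTCN1 does. Expressed genes within 5 Mb of VTCN1 had a median RNA change of 1.09 in erLor0, beside 1.24 for CD58. A median over the genes around CD58 itself was not computed, so whether its change is that of a wider stretch was not tested.

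Across the members, 3, 16 and 37 of the 92 paired peaks were up in erCriz0, erAlec0 and erLor0, and 0, 13 and 6 were down. Over all peaks, 7%, 14.1% and 7.45% were up and 5.94%, 9.41% and 8.82% were down. Of the 37 in erLor0, 32 belong to VTCN1. Without VTCN1, 3, 11 and 5 of 60 peaks were up and 0, 13 and 6 were down. After the median of other peaks within 5 Mb was taken off each of the 92, 4 were down in erAlec0 and 1 in erLor0. Before that step, the down peaks came from NT5E, NECTIN2 and PVR, and the remaining up peaks from CD274, PDCD1LG2, CD276, CD47, LGALS9 and 1 NT5E peak. Peaks of 1 gene lie close together and are not independent.

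**Figure D4:**
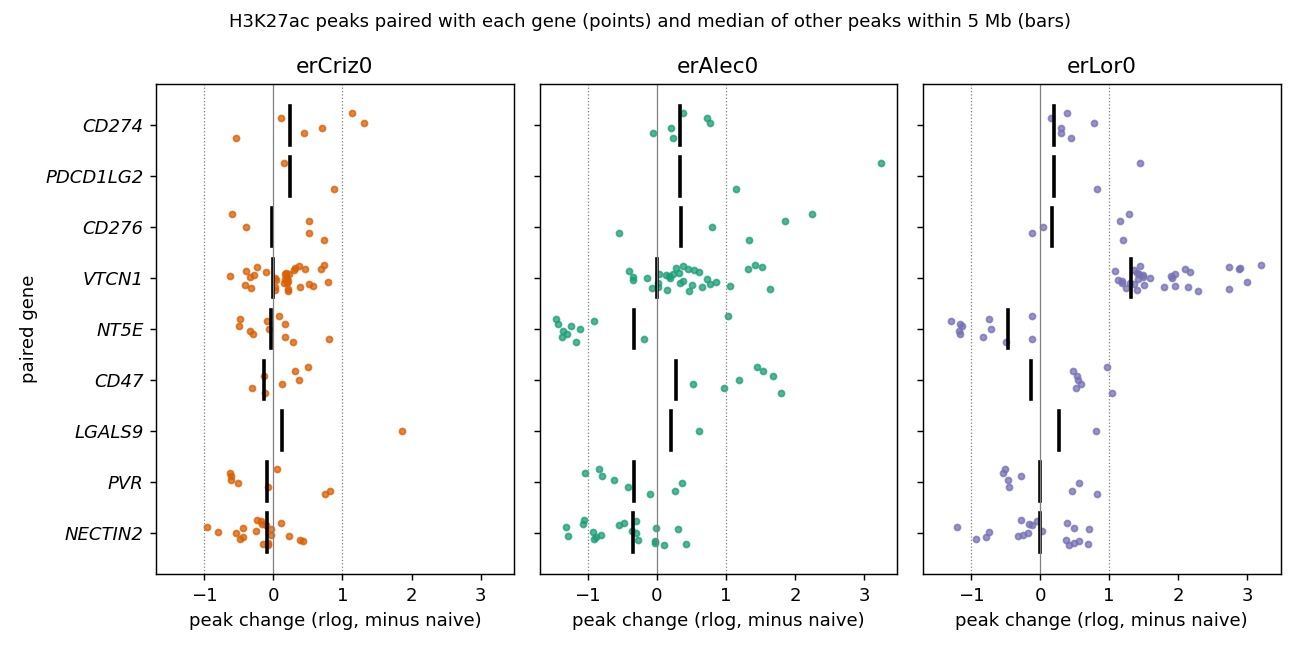
Change of each H3K27ac peak paired with a gene (points, rlog of the named resistant line minus naive, x axis) and the regional median, over other peaks up to 5 Mb away (black bars), by gene (y axis), with dotted lines at -1 and 1. In erLor0 the VTCN1 points lie between 1.09 and 3.20 around a regional median of 1.32, and in erAlec0 the CD47 points lie right and most NT5E points left of their bars.

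RNA and start-site acetylation were then set side by side. For the 6 genes with a peak over the start, 10 pairs of a gene and a line had both changes of at least 0.25 in size, and in 7 of them the signs were the same. Those 7 were CD274 and PVR in all 3 lines and VTCN1, which was not expressed, in erLor0. The PVR peak change in erAlec0, 0.261, was 0.246 after centring and 0.04 under quantile normalization, both below 0.25. The pairs of a gene share the naive library, and the same share over all genes was not computed. Adding the near-start peaks of CD47 and LGALS9, a choice made after the data were seen, gave 10 of 15. With the median of all paired peaks in place of the start-site peak it was 4 of 10 over the same 6 genes, and 6 of 14 over all members. CD274, PVR and CD47 had both values higher in all 3 lines, NT5E in erAlec0 and erLor0 had opposite signs, and CD276 had start-site changes of 0.73, 1.33 and 1.19 with RNA changes of -0.31, -0.07 and 0.03.

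**Figure D5:**
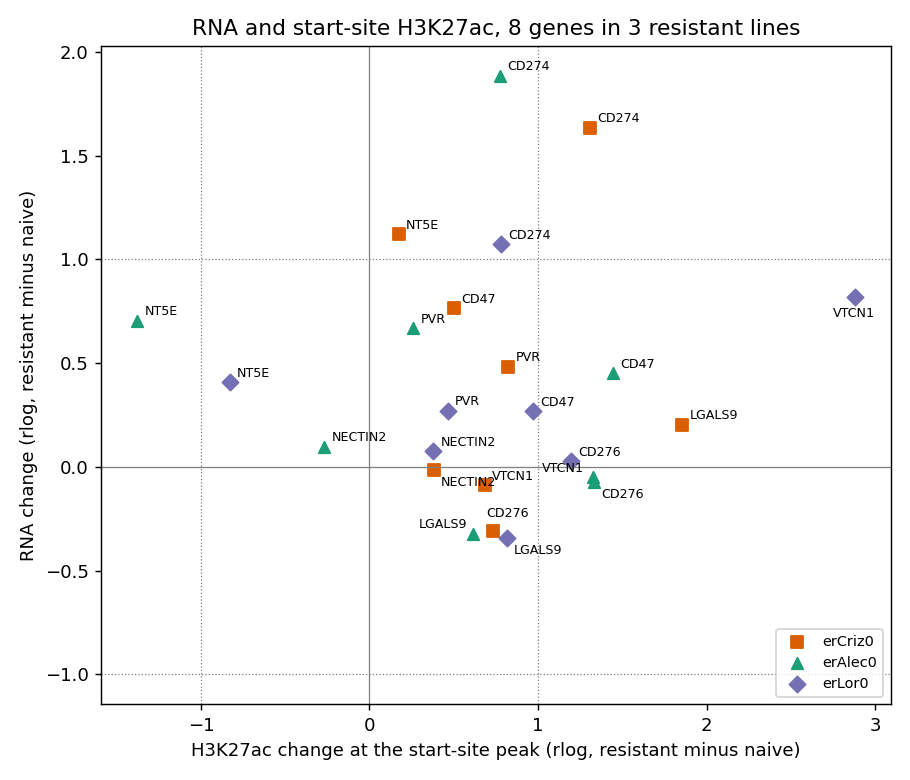
RNA change (y axis) against H3K27ac change at the start-site peak (x axis), both as rlog of a resistant line minus naive, for 8 genes in 3 lines, with the peak over the RefSeq start used for CD47 and LGALS9 and dotted lines at -1 and 1. The 3 CD274 points lie in the upper right, and the NT5E points of erAlec0 (-1.38, 0.70) and erLor0 (-0.83, 0.41) lie in the upper left.

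The genes known to control PD-L1 were examined last. Of 15 interferon response regulators, 14 were expressed and none was past 1 in any line. All 14 were higher in erCriz0, with a median of 0.37, whereas 7 were higher in erAlec0 and 6 in erLor0, with medians of 0.03 and -0.04. Over all expressed genes the medians were -0.02, 0.00 and -0.00, and the share of them that was higher was not computed. JAK1 and STAT3, the highest of the 14, changed by 0.27, 0.33 and 0.14 and by 0.76, 0.69 and 0.15. Chosen after their values were seen, IRF1, a factor through which interferon gamma activates CD274, was at 8.17, 8.83, 7.88 and 7.57, and IFNGR1, a chain of the interferon gamma receptor, was at 9.38, 10.00, 8.86 and 8.89. Both were higher than in naive cells in erCriz0 and lower in erAlec0 and erLor0. Of the 14, 5 were higher in all 3 lines, JAK1, JAK2, STAT3 and IFNGR2 (0.45, 0.59 and 0.18) among them. Of 12 genes of PD-L1 stability and processing, all expressed, USP22 alone passed the limit. USP22, which encodes a deubiquitinase known to stabilise PD-L1, was at 11.74, 11.68, 12.75 and 12.40, changes of -0.06, 1.01 and 0.66. USP22 lies on chromosome 17, and its changes were not compared with those of genes around it. The 12 had medians of -0.09, -0.03 and -0.02.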

How the data were processed

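The authors deposited 1 table of 295240 pairs of an H3K27ac peak with a gene within 20 kb, with values on a log2 scale in 4 libraries. These are rlog values that the authors made with DESeq2 from read counts. For RNA, MiSeq reads were aligned to hg38 with HISAT2 and counted with HTSeq-count. For ChIP, reads were aligned with BWA, duplicates were removed, a mapping quality of at least 25 was required, MACS2 peaks (q of 0.05) were merged, blacklisted regions were removed and reads were counted with featureCounts. No subtraction of input is stated. The table also holds the correlation of each pair with its p-value and adjusted p-value, which are the authors' own comparisons and were not used. Depth is unknown, and rlog shrinks the changes of features with few reads.

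Members were matched by Ensembl identifier and GENCODE release 44 symbol, and positions are 1-based on hg38. Changes were resistant minus naive, called at 1, the limit that the study's methods set for genes, applied here to peaks as well. A peak was taken as the start-site peak when it covered the outermost GENCODE start. Named genes are all members, the genes of each list past 1 (otherwise its 2 highest), and the 3 nearest in pattern to CD274 and NT5E. JAK2, PTPRC, ENTPD1, LGALS9B, LGALS9C, QPCTL, QPCT, CD24, THBS1, IRF1, IFNGR1, IFNGR2 and genes that overlap a member or share its peaks were named beside this rule, after values were seen. One gene that this rule names is not reported here. The members and lists were chosen with earlier results of these data known. Alternatives were other limits, centring, quantile normalization, other peak sets and regional medians. Scripts were tested on simulated data. Python 3.11.15, numpy 2.4.6, pandas 2.3.3 and matplotlib 3.10.9 were used.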

Additional observations from a re-analysis of the deposited data

Results flagged for a closer look

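The start-site peak of NECTIN2 moved in different directions in the resistant lines, with a change of 0.38 in erCriz0 and -0.27 in erAlec0. Under quantile normalization the erCriz0 change was 0.0625, close to 0. Each value comes from 1 library, and the difference was not tested.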

How the results depend on the processing

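Of 507 values computed under other settings, 421 kept within 0.25 (log2), 1.5 times for counts, and their side of the limit of 1, 86 moved and 0 turned a call the other way. Some of the 421 could not move, such as settings that leave the 1 peak of LGALS9 unchanged. Of the 421, 141 were gene list counts, many of them 0 under both settings. Centring shifted RNA by 0.05, 0.03 and 0.02 and peaks by 0.08, -0.02 and 0.10 in erCriz0, erAlec0 and erLor0.

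Members up in RNA were 0 in each line at a limit of 2, and 3 in erAlec0 and 2 in erLor0 at 1.5-fold. Minus the median of expressed genes within 5 Mb, a setting added after the data were seen, RNA changes in erCriz0 became 1.26 for CD274, -0.37 for PDCD1LG2, 0.51 for CD47, 0.78 for PVR, 0.28 for NECTIN2 and 0.81 for NT5E, so that NT5E was no longer past 1. NT5E became 0.97 in erAlec0 and 0.74 in erLor0, and VTCN1 -0.27 in erLor0.

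Quantile normalization gave start-site changes in erCriz0 of 1.03 for CD274, 0.36 for VTCN1, 0.51 for PVR and 0.0625 for NECTIN2, and in erLor0 of -1.02 for NT5E and 0.12 for NECTIN2. It gave the LGALS9 peak 1.55 in erCriz0. The mean of peaks within 2 kb of the start was 0.71 (erCriz0) and 0.47 (erLor0) for CD274 and -0.91 (erAlec0) and -0.48 (erLor0) for NT5E. Peaks paired with 1 gene gave medians of 0.40 (erAlec0) and 0.54 (erLor0) for CD276, 0.41 (erCriz0) for CD47, and -0.0294 (erAlec0) and 0.49 (erLor0) for NECTIN2. Peaks reaching the log2 of 15 gave 0.92 (erCriz0) and 0.56 (erAlec0) for CD274, 1.86 (erAlec0) for CD276, 0.38 (erLor0) for NECTIN2 and 1.95 (erLor0) for VTCN1. Peaks within 5 kb of the gene gave 1.13 (erCriz0) and 0.73 (erAlec0) for CD274, 0.15, 3.25 and 1.44 for PDCD1LG2 and 0.75, -0.10 and 0.46 for PVR. Against a region of 2 Mb, CD47 was 0.67 (erAlec0) and 0.28 (erLor0) and NT5E -0.48, -1.46 and -0.86 relative to their surroundings.

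Counts of member peaks at 1.5-fold were 12 (erCriz0) and 26 (erAlec0) up, and 7, 21 and 12 down. Minus the regional median they were 11 up (erLor0), 4 down (erAlec0) and 1 down (erLor0), and without VTCN1 5 were up in erLor0. In the gene lists, 1.5-fold gave 1 to 4 genes past the limit where the count moved (1, 2, 3 or 4), and centring on expressed genes gave 1 down for the adenosine pathway, 1 up for interferon regulators and 2 up for neighbours of CD274 in erCriz0. RNA and the median of all paired peaks had the same sign in 4 of 10 pairs over the genes with a start-site peak, a setting added after the data were seen. The causes were not tested. No paired analysis was possible because each line has 1 library and no result comes from a test. The unknown depth sets how small a change in VTCN1, PDCD1LG2 and weak peaks could be seen.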
